A study of Mus musculus with 7 samples.

Results

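Gene expression 3 days after an infusion of CXCL12 into the mouse uterus was compared with that after saline. The comparison takes 2 CXCL12 Day 3 libraries and 2 saline libraries, 4 of the 7 libraries in the series, which were chosen by their sample labels, and covers all genes. The mice were C57BL/6 females 6 weeks of age. Under anaesthesia, 100 ng of recombinant human CXCL12 in 30 µl of saline was infused into one uterine horn and saline into the other, and uterine tissue was taken 3 or 8 days later. No genotype other than the strain is given. When the saline horns were taken is not in the labels, nor which horn came from which animal, so the P values measure only the spread between libraries, which may be technical. That spread was pooled over all 7 libraries in 3 groups. Each SE and P below therefore also holds the scatter among the 3 Day 8 libraries. Both horns were infused in one operation, the volume of the saline infusion is not given, and no uninfused horn was analysed here. Whole uterine tissue was used, so a library mixes endometrium, muscle and whatever lay on the dissected horn. In such bulk samples, fewer cells of a type and less RNA per cell cannot be told apart.

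CXCL12 is a chemokine, a small secreted protein that attracts cells. It signals through the receptor CXCR4, on leukocytes and endothelial cells among others, and is bound and cleared by ACKR3 (CXCR7). In the uterus it is made by stroma and by embryos at implantation. Other chemokines bring eosinophils, monocytes, neutrophils and natural killer cells into the uterine wall, and their numbers follow the oestrous cycle. Oestrogen drives growth of the uterine epithelium and a rise of eosinophils. Progesterone acts through Ihh and the Wnt and BMP pathways to prepare the stroma for an embryo.

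The saline libraries held 6908790 and 9491691 counts. Day 3 replicate 2 held 9968909, and the count total recovered for Day 3 replicate 1 was 10435470. All values below are counts brought to one library size and quantile-normalised over the 7 libraries, called normalised counts, and differences are on the scale of log2(normalised count + 1), which understates the change of low genes. Saline replicate 1 stood apart. Over 14876 genes it correlated with the other 6 libraries at a Pearson r of 0.877 to 0.901, whereas the Day 3 libraries correlated with each other at 0.975 and with saline replicate 2 at 0.946 and 0.942. The saline libraries lay at least 2-fold apart for 4265 genes (28.7%) and the Day 3 libraries for 948 (6.37%). Some genes that most cells use were nearly missing from saline replicate 1. Sdhd, a subunit of respiratory complex II, had 8 reads there against 978 in saline replicate 2, and 773 and 1096 at Day 3. Many of the counts and lists below are therefore also given without that library. A gene or list shown without such a value should not be taken as stable to its removal. The uterine identity of the tissue could be read from Esr1, the oestrogen receptor, at 2931 and 3232 normalised counts in saline and 2840 and 3085 at Day 3, and from Hoxa11, a uterine patterning gene, at 1528 and 606 against 737 and 914. Neither gene was called.

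A gene was called where limma gave an unadjusted P of at most 0.05 and the groups differed at least 2-fold. In all, 693 of 14876 genes were called (4.66%), 295 of them higher at Day 3 (1.98%) and 398 lower (2.68%). After Benjamini-Hochberg adjustment over all genes the smallest p by limma was 0.617 and 0 genes met a limit of 0.1, although 1117 genes had an unadjusted P of at most 0.05. At the adjusted p, edgeR also called 0 genes and DESeq2 called 94, with the fold change of 2 in each. For this reason the genes below are described as higher or lower, and none is said to have changed. Libraries of the groups did not overlap for 46.4% of all genes, with both Day 3 libraries above for 24.1% and below for 22.2%. Without saline replicate 1, 295 genes were called, 165 higher and 130 lower. Of the 693 calls, 26.1% were kept. Without saline replicate 2, 2847 genes were called, and without Day 3 replicates 1 and 2 in turn, 281 and 259. Scaling also moved the split between higher and lower, which was 295 and 398 here, 162 and 600 by edgeR, 226 and 698 by DESeq2, and 106 and 939 with library totals alone, where the median of all genes lay at -0.26. Among the genes called higher, saline replicate 1 was the lowest of all 7 libraries for 232 (78.6%), and among those called lower it was the highest for 240 (60.3%). The median difference of all genes was 0.01, and the median gap between the saline libraries (0.60) exceeded that between the group means (0.41).

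**Figure D1:**
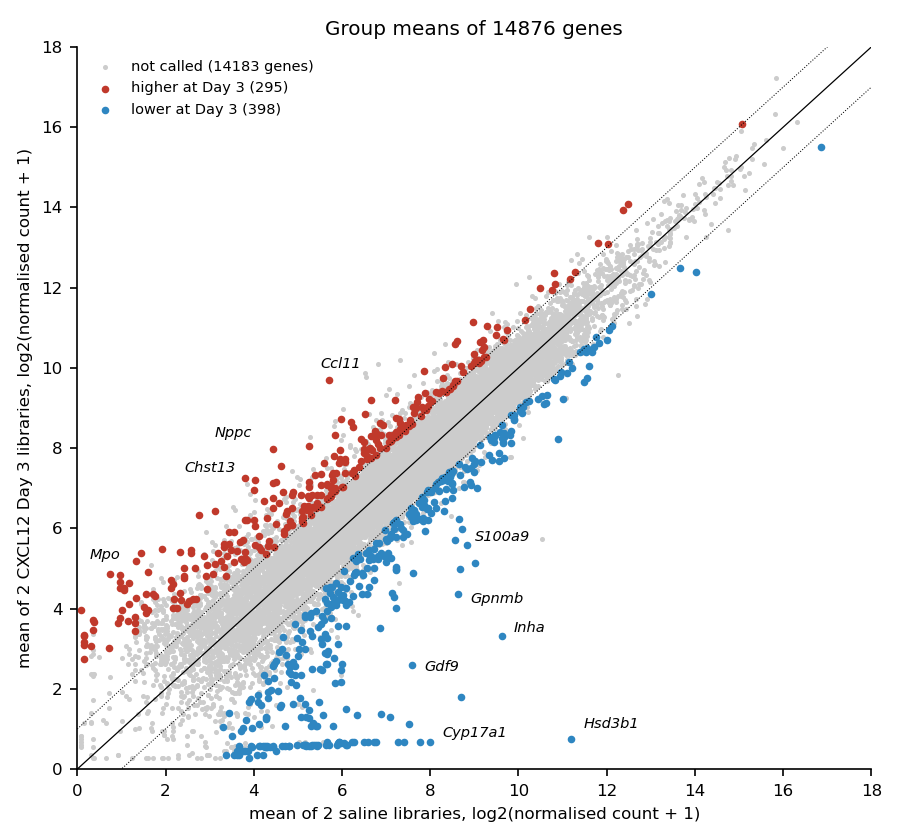
Mean log2(normalised count + 1) of the 2 saline libraries (horizontal) against that of the 2 CXCL12 Day 3 libraries (vertical) for 14876 genes, with 295 called higher in red, 398 called lower in blue and genes not called in grey. The solid line marks equal levels and the dotted lines a 2-fold difference, and the genes farthest below it include Hsd3b1, Cyp17a1 and Inha.

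Among genes with a mean of at least 64 normalised counts in the higher group, a chemokine had the largest difference upward. Ccl11 (eotaxin, which attracts eosinophils through the receptor CCR3) had 21.8 and 117 normalised counts in saline and 693 and 993 at Day 3. Every Day 3 value lay above both saline values, by a log2 difference of 4.00 (SE 0.72). It was 2.82 without saline replicate 1, and the gene stayed called. At Day 8, Ccl11 stood at 245, 123 and 119 in replicates 1, 2 and 3. Replicate 1 is labelled Day 8, but the name of its table says Day 3. Neighbouring genes behaved in part alike. Ccl7, a monocyte attractant, had 5.78 and 88.5 normalised counts in saline and 188 and 186 at Day 3, with a log2 difference of 2.93 (SE 1.04). Ccl12, a mouse ligand of CCR2 on monocytes, had 5.78 and 67.7 in saline and 142 and 135 at Day 3, with a difference of 2.69 (SE 0.91). Both rested in large part on saline replicate 1, and without it the differences were 1.07 for Ccl7, which was then not called, and 1.02 for Ccl12, which was. Without Day 3 replicate 1 or replicate 2, neither was called. Of the other genes of the cluster, Ccl2 had 18.1 and 78.5 in saline against 34.5 and 56.9 at Day 3. Ccl8 had 496 and 476 against 698 and 425. The saline and Day 3 values overlapped for both. By the RefSeq annotation of GRCm38.p6 these genes lie in one row on chromosome 11: Ccl2 at chr11:82035577-82037452, Ccl7 at chr11:82045712-82047525, Ccl11 at chr11:82057832-82062955, Ccl12 at chr11:82101845-82103399 and Ccl8 at chr11:82115185-82116799. Reads with several alignments were counted, so counts of these similar genes may share reads and their separate levels are uncertain.

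Of 36 chemokine ligands listed, 31 were high enough to be tested, and 4 were called higher and 3 lower, where 1.98% and 2.68% of all genes were. The list's median difference was -0.03 (-0.33 without saline replicate 1). Besides the genes of the Ccl11 cluster, Xcl1, made by natural killer and T cells to draw dendritic cells, had 37.3 and 118 normalised counts in saline and 213 and 192 at Day 3. Its log2 difference of 1.59 (SE 0.63) was 0.77 without saline replicate 1, and the gene was then not called. The ligands called lower bind the neutrophil receptor CXCR2 or, for Cxcl15, belong to the same family. Cxcl2 had 21 and 106 reads in saline against 3 and 5 at Day 3, 19.8-fold lower per read sequenced (95% interval 9.72 to 46.7, counting error alone). Cxcl5 had 15.7 and 36.8 normalised counts against 8.41 and 5.78, a log2 difference of -1.65 (SE 0.70). Cxcl15, a product of the uterine glands, had 321 and 163 against 60.6 and 95.0, a difference of -1.58 (SE 0.50). For each of the 3, both Day 3 values lay below both saline values. Without saline replicate 1, 3 ligands were called higher and 3 lower. Cxcl15 was then not called (-1.10), and without saline replicate 2 Cxcl2 and Cxcl5 were not (-2.11 and -1.11). Without Day 3 replicate 1, 1 ligand was called higher and 0 lower, and without Day 3 replicate 2, 1 and 1.

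Among 17 receptors tested of 23 listed, 2 were called higher and 0 lower (1.98% and 2.68% of all genes). The median was -0.09 (0.14 without saline replicate 1). Ackr4, which takes up CCL19, CCL21 and CCL25 without signalling, had 25.5 and 53.2 normalised counts in saline and 164 and 103 at Day 3 (log2 difference 1.79, SE 0.52). Ccr3, the eotaxin receptor carried by eosinophils, had 63.5 and 85.9 in saline and 195 and 141 at Day 3 (1.16, SE 0.43). Neither gene overlapped between the groups, but neither stayed called without saline replicate 1 (1.28 for Ackr4 and 0.94 for Ccr3) or without Day 3 replicate 1 (1.45 and 0.92), where the list had 0 called and a median of -0.33.

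Leukocyte genes were called in both directions. The sequences upstream of 4 called genes are printed. In the main fit Ccl12 and the eotaxin receptor gene Ccr3 were called higher, and S100a8 and S100a9 lower. Each is the 250 bases before the RefSeq start on GRCm38.p6, 5′ to 3′ along the gene's strand. Ccl12 is at chr11:82101595-82101844 (plus strand), Ccr3 at chr9:124021721-124021970 (plus), S100a8 at chr3:90668821-90669070 (plus) and S100a9 at chr3:90695722-90695971 (minus). Capitals mark matches to the motifs searched on both strands: TATAAA (the TATA box), CCAAT (the CCAAT box), TGANTCA (the AP-1 site) and GGTCA (the core of the oestrogen receptor element). Ccl7 and Ccl11 had no entry in the RefSeq table used.
Ccl12: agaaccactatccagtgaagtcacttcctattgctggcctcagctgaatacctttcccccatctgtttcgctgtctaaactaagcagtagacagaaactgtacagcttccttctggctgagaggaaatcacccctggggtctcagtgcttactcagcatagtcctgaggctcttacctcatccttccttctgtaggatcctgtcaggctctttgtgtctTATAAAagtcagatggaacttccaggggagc
Ccr3: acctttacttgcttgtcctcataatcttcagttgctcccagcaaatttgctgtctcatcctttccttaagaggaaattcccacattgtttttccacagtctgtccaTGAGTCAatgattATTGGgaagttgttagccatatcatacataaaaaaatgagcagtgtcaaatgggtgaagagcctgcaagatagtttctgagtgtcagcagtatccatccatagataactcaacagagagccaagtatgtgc
S100a8: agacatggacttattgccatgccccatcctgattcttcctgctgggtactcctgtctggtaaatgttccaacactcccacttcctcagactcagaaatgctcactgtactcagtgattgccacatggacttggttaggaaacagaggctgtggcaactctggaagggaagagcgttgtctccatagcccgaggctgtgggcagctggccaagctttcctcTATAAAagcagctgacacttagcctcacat
S100a9: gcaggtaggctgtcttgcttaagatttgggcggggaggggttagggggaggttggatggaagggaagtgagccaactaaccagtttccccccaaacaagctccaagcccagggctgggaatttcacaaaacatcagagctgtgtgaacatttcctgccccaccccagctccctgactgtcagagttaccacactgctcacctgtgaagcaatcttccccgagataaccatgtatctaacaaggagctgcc
TATAAA lay 31 bases before the start of Ccl12 and 30 before that of S100a8. In Ccr3, TGAGTCA lay 144 bases before the start and ATTGG, which is CCAAT on the other strand, 131 before it. S100a9 held none of these letters in its window. No matches overlapped. Among 32851 promoter windows of 27025 genes, 12.4% hold TATAAA, 33.8% CCAAT, 6.75% TGANTCA and 35.2% GGTCA. A match is a run of letters and was not tested as a site.

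Most neutrophil markers that were called were lower, where 1.98% of all genes were called higher and 2.68% lower. Of 19 neutrophil markers, 12 were tested, with 1 called higher and 4 lower and a median log2 difference of -1.56 against 0.01 for all genes (-1.72 without saline replicate 1, with 2 called higher and 4 lower, and -0.97 without saline replicate 2, with 1 and 2). S100a8 and S100a9, the calprotectin subunits stored in neutrophils and monocytes, gave the clearest values. S100a9 had 288 and 619 normalised counts in saline and 87.1 and 45.0 at Day 3 (log2 difference -2.73, SE 0.49). S100a8 had 208 and 688 against 58.2 and 45.0 (-2.86, SE 0.78). Il1b, an inflammatory cytokine of neutrophils and macrophages, had 52.2 and 85.9 against 7.38 and 15.6 (-2.53, SE 0.81). Mmp9, a gelatinase of neutrophil granules, had 369 and 184 against 130 and 109 (-1.12, SE 0.44). In these 4 genes, saline and Day 3 did not overlap. S100a9 stayed called whichever library was left out, whereas S100a8 and Il1b were not called without saline replicate 2 (-2.01 and -2.20) and Mmp9 was not without saline replicate 1 (-0.62). Other neutrophil genes did not share this direction. Mpo, the myeloperoxidase made by granulocyte precursors, had 0 and 4 reads in saline and 25 and 28 at Day 3, which is 10.6-fold higher per read sequenced (95% interval 3.92 to 40.5). Retnlg, another neutrophil product, had 790 and 582 normalised counts in saline and 1198 and 1180 at Day 3, a log2 difference of 0.81 that is under the fold required. Elane, Csf3r, Camp and Ngp were too low to be tested. The summed normalised counts of the list were 1780 and 2490 in saline and 1595 and 1512 at Day 3.

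The macrophage markers that were called were lower. Of 20 tested, 0 were called higher and 5 lower (1.98% and 2.68% of all genes). In 17 the difference was negative, and the median of the list was -0.74. It was -0.70 without saline replicate 1, with 2 called lower, and -1.04 and -0.59 without Day 3 replicates 1 and 2, with 3 and 1. Cd68, a lysosomal protein of macrophages, had 682 and 375 normalised counts in saline and 169 and 165 at Day 3 (log2 difference -1.59, SE 0.34). Arg1, the arginase of alternatively activated macrophages, had 173 and 581 against 96.9 and 76.1 (-1.87, SE 0.60). Both stayed called without saline replicate 1, at -1.16 for Cd68 and -2.75 for Arg1. Csf1r, the receptor for the macrophage growth factor, had 1289 and 497 against 289 and 270 (-1.52, SE 0.59). The scavenger receptor Cd163 had 58.7 and 41.8 against 18.3 and 3.78 (-2.40, SE 0.79). Saline replicate 1 was the higher saline library for each of these except Arg1. Without it Csf1r and Cd163 were not called (-0.83 and -2.17), and Arg1 was not without saline replicate 2. Gpnmb and Clec7a lie outside the list and were named after their low values were seen, so they add no support to it. Gpnmb, a glycoprotein of lipid-laden phagocytes, had 682 and 227 in saline and 13.4 and 28.2 at Day 3 (-4.26, SE 0.77). Clec7a, the fungal glucan receptor Dectin-1, had 621 and 263 against 74.2 and 74.2 (-2.43, SE 0.45). The summed macrophage list stood at 12388 and 9542 in saline and 6787 and 4971 at Day 3.

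A few eosinophil and natural killer genes were called higher. Over all genes, 1.98% were called higher and 2.68% lower. Prg2, the eosinophil major basic protein, had 2 and 4 reads in saline and 14 and 10 at Day 3, 3.22-fold higher per read sequenced (95% interval 1.28 to 9.62). Prg2 and Ccr3 were the 2 genes called higher of 11 eosinophil and mast cell markers tested, with 0 lower and a median of 0.57. That median was 0.12 without saline replicate 1, where Ccr3 was not called, and -0.05 with 0 called without Day 3 replicate 1. The defining genes Epx and Ear1 were too low to be tested. Of 17 natural killer and cytotoxic genes tested, Xcl1 was called higher and 0 were called lower, and 0 were called without saline replicate 1 or either replicate of Day 3. Of these 17, 15 had a positive difference, and for 10 both Day 3 libraries lay above both saline libraries (24.1% of all genes). The median was 0.76 (0.70 without saline replicate 1), and the summed list stood at 670 and 678 in saline and 1051 and 1062 at Day 3. Klrb1c (NK1.1) had 49.8 and 44.6 normalised counts in saline and 83.5 and 104 at Day 3, a log2 difference of 0.97 that is just under the fold required. Of 8 T cell markers tested, 0 were called, with a median of 0.24 (0.65 without saline replicate 1). Cd3e, Cd4 and Cd8a were too low to be tested. Complement genes had a median of -0.80 over 20 tested (-0.41 without saline replicate 1), with C4b called lower. C4b was not called without saline replicate 1 (-0.83) or Day 3 replicate 2 (-0.76), and 7 genes were called lower without saline replicate 2. C3, the central component, had 5691 and 3526 normalised counts in saline and 2537 and 2242 at Day 3. Over 28 interferon-stimulated genes the median was 0.03, and the RNA sensor Ifih1 was the one called, lower. The median was 0.53 without saline replicate 1, where Ifih1 was not called (-0.89), and without saline replicate 2 the median was -0.39.

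**Figure D2:**
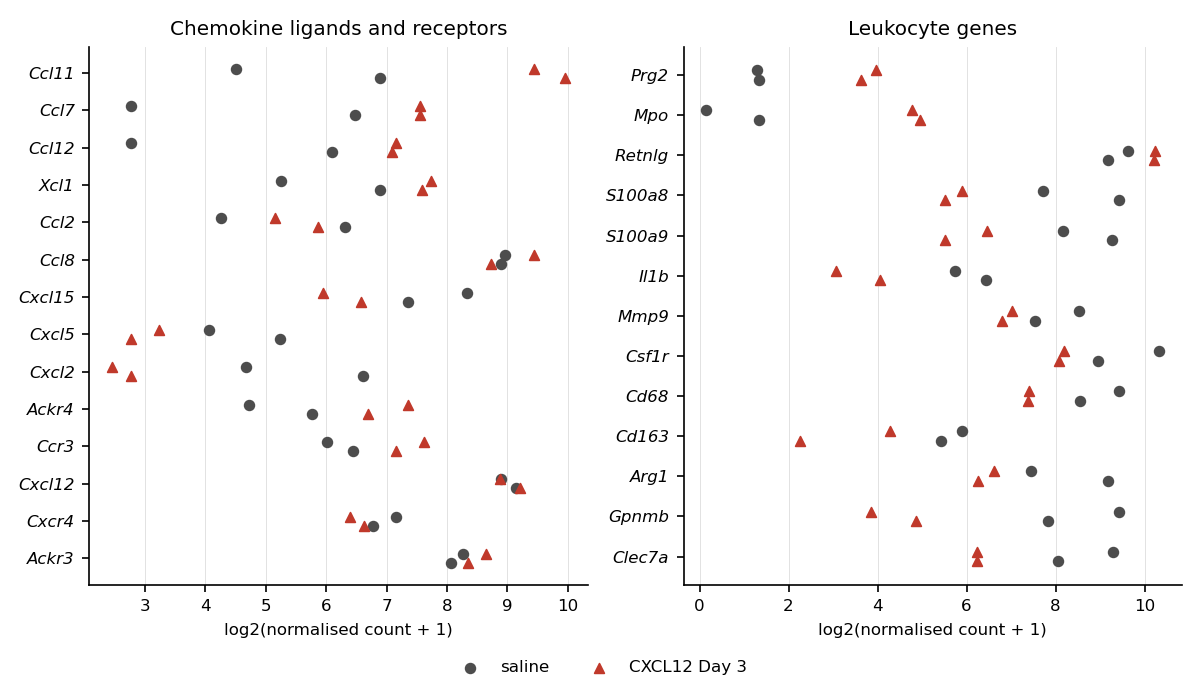
Normalised counts, as log2(normalised count + 1), of chemokine genes (left) and leukocyte genes (right) in each saline library (dark circles) and each CXCL12 Day 3 library (red triangles). Ccl11, Mpo and Ackr4 lie to the right of saline in both Day 3 libraries, and Cxcl2, S100a8, S100a9, Il1b, Cd68 and Gpnmb to the left.

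The other genes with the largest upward differences came from several families. Chst13, a sulfotransferase for chondroitin chains, had 8.41 and 27.4 normalised counts in saline and 153 and 141 at Day 3 (log2 difference 3.18, SE 0.60). It stayed called without saline replicate 1 (2.40), and at Day 8 it stood at 26.1, 15.3 and 17.1. Nrk, a Nik-related kinase, had 20.8 and 65.8 in saline and 229 and 310 at Day 3 (2.81, SE 0.64) and stayed called without saline replicate 1 (2.01). Syt4, a synaptotagmin of vesicle release, had 14.4 and 32.0 in saline and 150 and 136 at Day 3 (2.67, SE 0.73). Both Day 3 values were more than 2-fold above the higher saline value in these 3. Ptpn5, a tyrosine phosphatase, had 19.7 and 190 against 410 and 438, and its difference of 2.75 was 1.15 without it, still called. Nppc, the C-type natriuretic peptide, had 3.58 and 101 in saline and 220 and 283 at Day 3 (3.53, SE 1.26), and was not called without it (1.29). Arf5, a GTPase of vesicle traffic, had 0 reads in saline replicate 1 and 46 in replicate 2, against 82 and 72 at Day 3. The remaining genes of this group were the protease Prss22 (1.44 and 77.6 normalised counts in saline, 144 and 161 at Day 3), the deaminase relative Apobec2 (3.58 and 15.6, then 94.1 and 78.2) and the hair keratin Krt85 (4.64 and 45.4, then 113 and 136). None of these 4 was called without saline replicate 1, at 0.96 for Arf5, 0.96 for Prss22, 2.42 for Apobec2 and 1.43 for Krt85. For all 12 of the largest, saline replicate 1 was the lower saline library.

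**Figure D3:**
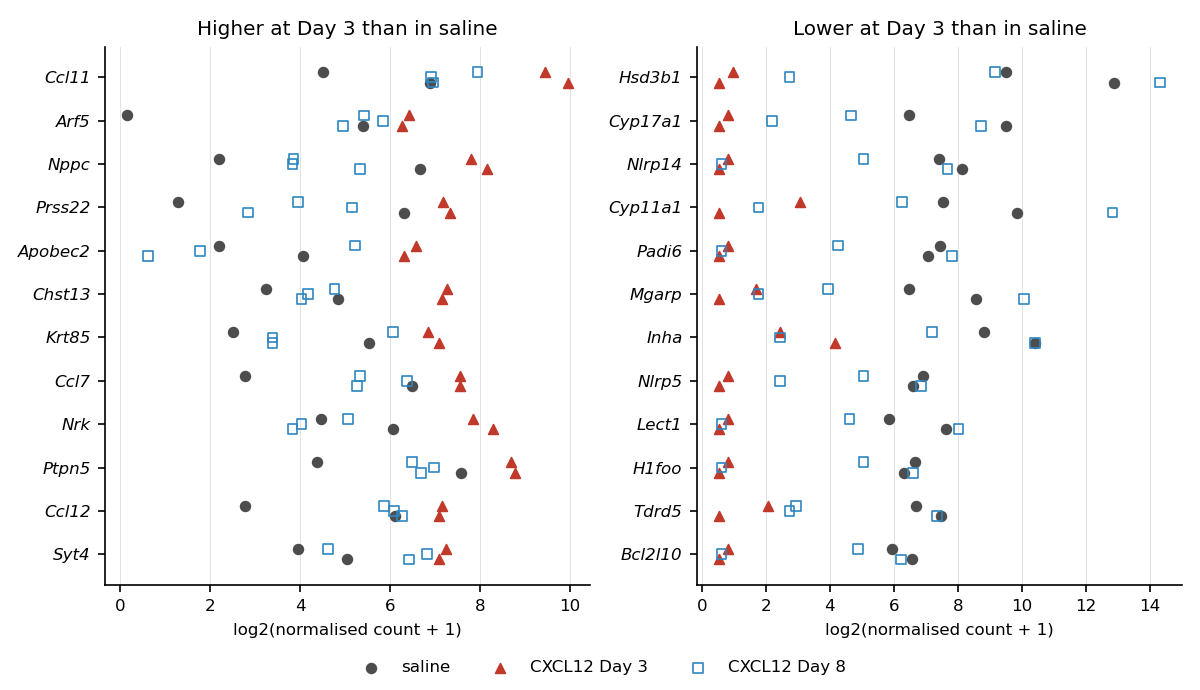
Normalised counts per library, as log2(normalised count + 1), of the 12 genes with the largest upward differences (left) and the 12 with the largest downward differences (right), in saline (dark circles), CXCL12 Day 3 (red triangles) and CXCL12 Day 8 (open blue squares). On the left saline replicate 1 is the leftmost circle for each gene, and on the right the Day 8 libraries of Hsd3b1 run from 5.68 to 20485 normalised counts.

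Genes of ovarian steroid cells and of oocytes made up most of the largest downward differences. Hsd3b1, which makes progesterone from pregnenolone, had 577 and 7343 reads in saline and 0 and 0 at Day 3, at least 3280-fold lower when 3 counts over the Day 3 group is taken as the floor. Cyp11a1, the side-chain cleavage enzyme that starts steroid synthesis, had 152 and 973 reads against 6 and 0, which is 233-fold lower (95% interval 107 to 637). Cyp17a1, of androgen synthesis, had 72 and 775 against 0 and 0, at least 351-fold lower. The Day 3 libraries held almost no reads of these enzymes, whereas saline replicate 2 held most. Inha, the inhibin alpha chain of granulosa cells, had 448 and 1375 normalised counts in saline and 4.48 and 16.9 at Day 3. Genes of the oocyte were lower too. Gdf9, an oocyte growth factor, had 157 and 209 reads in saline and 4 and 4 at Day 3 (56.9-fold lower, 95% interval 28.6 to 133). Nlrp14 and Nlrp5, oocyte proteins that the early embryo needs, had 139 and 304, and 98 and 106 reads in saline, and 0 in each Day 3 library. Zp2, of the egg coat, had 54 and 60 reads against 0 and 0, at least 47.3-fold lower. Padi6, H1foo, Btg4 and Bcl2l10, also of the oocyte, had between 51 and 146 reads in each saline library and 0 at Day 3. Mgarp had 71 and 412 reads against 1 and 0, Lect1 (chondromodulin) 47 and 216 against 0 and 0, and the germ cell gene Tdrd5 84 and 194 against 2 and 0.

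Steroid-making cells and oocytes belong to the ovary, which lies at the tip of the uterine horn. Of 19 genes listed for ovarian steroid cells and oocytes, 18 were tested. Of these, 0 were called higher and 10 lower (1.98% and 2.68% of all genes). For 13, both Day 3 libraries lay below both saline libraries, where 22.2% of all genes did. The median difference was -4.04, against 0.01 for all genes, and -5.13 without saline replicate 1, with 8 called lower. Leaving out saline replicate 2 left 3 called lower, and leaving out Day 3 replicates 1 and 2 in turn left 5 and 6. Cyp17a1 and Gdf9 stayed called whichever of the 4 was left out, Hsd3b1 was not called without saline replicate 2, Inha was not without saline replicate 2 or Day 3 replicate 1, and Cyp11a1 was not in any of the 4. The summed list stood at 2948 and 12543 normalised counts in saline and 848 and 1126 at Day 3. Of the Day 3 sums, 456 and 716 came from Foxl2, which uterine stroma also expresses and which had 735 and 399 in saline. The Day 8 libraries differed from each other in the same genes. Hsd3b1 stood at 578, 20485 and 5.68 normalised counts in Day 8 replicates 1, 2 and 3. The part of ovarian tissue in this result was not tested. Among all 398 genes called lower, 103 (25.9%) had 3 reads or fewer in both Day 3 libraries. Oviduct genes did not share this, with 0 of 20 tested called and a median of 0.65 (0.33 without saline replicate 1). For 10 of them both Day 3 libraries lay above both saline libraries and for 1 below (24.1% and 22.2% of all genes). Ovgp1, the oviduct glycoprotein, had 6945 and 6190 normalised counts in saline and 5852 and 7090 at Day 3.

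The muscle genes that were called were higher at Day 3, but smooth muscle genes were called no more often than all genes. Actg2, the enteric smooth muscle actin that the myometrium also makes, had 541 and 572 normalised counts in saline and 1464 and 1781 at Day 3, with no overlap (log2 difference 1.54, SE 0.41). It stayed called without saline replicate 1 (1.51). It was the one gene called of 22 smooth muscle genes tested (4.55%, where 4.66% of all genes were called). For 9 of them both Day 3 libraries lay above both saline libraries, for 0 below (24.1% and 22.2% of all genes), and the median was 0.33. The median was 0.76 without saline replicate 1, with 2 called higher, and 0.01 without saline replicate 2, with 1 called higher and 1 lower. Cnn1 (calponin) had 2084 and 1681 in saline and 3121 and 3784 at Day 3, and Oxtr, the oxytocin receptor, 111 and 138 against 278 and 314, a difference of 1.25 (SE 0.59) that was not called. Acta2 overlapped, at 16765 and 10238 against 15053 and 19263. Of 7 skeletal muscle genes tested of 14 listed, 3 were called higher and 0 lower (1.98% and 2.68% of all genes). Their median was 1.01. Tnni2, a fast troponin, had 180 and 301 in saline and 969 and 959 at Day 3 (2.04, SE 0.71). Tnnc2, its calcium-binding partner, had 0 and 10 reads in saline and 33 and 22 at Day 3, 4.42-fold higher (95% interval 2.23 to 9.73). Acta1, the skeletal actin, had 347 and 355 normalised counts against 606 and 830 (1.01, SE 0.37). Without saline replicate 1, 0 of the 7 were called, and the median was 1.16. Leaving out Day 3 replicate 1 or replicate 2 left 1 called. The myosins Myh1, Myh2 and Myh4 and the creatine kinase Ckm were too low to be tested.

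Of 12 erythroid and platelet genes tested, 4 were called higher and 0 lower (1.98% and 2.68% of all genes). All 12 had a positive difference, where 7566 of all 14876 genes did. The median was 1.44, but 0.49 without saline replicate 1. Hbb-bs, an adult beta-globin gene, had 23574 and 50496 normalised counts in saline and 73635 and 66010 at Day 3 (log2 difference 1.01, SE 0.42). Hbb-bt had 2949 and 11068 against 24352 and 12291 (1.60, SE 0.63). For both, saline replicate 2 lay nearer to Day 3 replicate 2 than to saline replicate 1. Without saline replicate 1, 1 of the 12 was called, and without Day 3 replicate 1, 0 were. The beta-globin genes are nearly identical, so how the reads divide among them is uncertain.

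The Wnt and hedgehog genes that were called were lower. Of 32 Wnt pathway genes tested, 0 were called higher and 4 lower (1.98% and 2.68% of all genes). The Day 3 libraries lay below both saline libraries for 13 and above them for 0, where 22.2% and 24.1% of all genes did. The median was -0.54 (-0.40 without saline replicate 1 and -0.34 without Day 3 replicate 1). Lgr5, the R-spondin receptor of Wnt-responsive epithelium, had 91.3 and 82.2 normalised counts in saline and 17.5 and 22.1 at Day 3 (log2 difference -2.08, SE 0.45). The saline libraries were close here, and the gene stayed called without saline replicate 1 (-2.03). Wnt6, an epithelial ligand, had 101 and 29.9 against 3.16 and 10.1 (-3.04, SE 0.88). The secreted Wnt binders Sfrp1 and Sfrp2 had 425 and 303 against 102 and 113 (-1.73, SE 0.49), and 868 and 215 against 111 and 152 (-1.72, SE 0.58). Leaving out saline replicate 1, Sfrp1 stayed called (-1.49), and Wnt6 (-2.18) and Sfrp2 (-0.72) did not. Wnt4, the ligand of the decidual response, had 776 and 371 against 171 and 178 (-1.62, SE 0.79) and was not called. Ihh, the hedgehog ligand that progesterone induces in uterine epithelium, had 30 and 29 reads in saline and 7 and 1 at Day 3, 9.18-fold lower (95% interval 4.37 to 22.2). Its receptor and target Ptch1 had 16 and 12 reads against 2 and 0. These were the 2 genes called of 10 hedgehog genes tested, 9 of which had a negative difference. Ptch1 was not called without saline replicate 1 (-2.17), and neither was without Day 3 replicate 2 (-1.69 for Ihh and -1.80 for Ptch1).

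Of 32 BMP, activin and TGF-beta genes tested, 1 was called higher and 4 lower (1.98% and 2.68% of all genes). The median was -0.40 (-0.16 without saline replicate 1). The chains of activin were called in both directions. Inhbb had 190 and 672 normalised counts in saline and 1070 and 1106 at Day 3 (log2 difference 1.60, SE 0.57), whereas Inhba had 372 and 566 against 36.9 and 59.8 (-3.26, SE 1.06). Inhbb was not called without saline replicate 1 (0.70), and Inhba was not without saline replicate 2 (-2.96) or Day 3 replicate 1 (-2.90). Inhba and Inha are also made by ovarian granulosa cells. The receptors Bmpr2 (1363 and 865 in saline, 485 and 457 at Day 3) and Bmpr1b (128 and 118, then 31.2 and 48.2) differed by -1.20 (SE 0.32) and -1.64 (SE 0.56), and by -0.88 and -1.59, not called, without saline replicate 1. The list then had 0 called higher and 2 lower. Enzymes that make retinoic acid from retinal were called in both directions too. Aldh1a2, the stromal enzyme, had 428 and 620 in saline and 1035 and 1293 at Day 3 (1.16, SE 0.32). Aldh1a3 had 88.4 and 23.4 against 7.38 and 2.71 (-3.07, SE 0.80), and Aldh1a1 had 1711 and 2093 against 319 and 276 (-2.67, SE 1.04). None of the 3 overlapped between the groups, and without saline replicate 1 none was called, at 0.91 for Aldh1a2, -2.17 for Aldh1a3 and -2.84 for Aldh1a1. Aldh1a1 was not called without any one of the 4 libraries. At Day 8 it stood at 596, 2911 and 171 normalised counts, with the highest value in replicate 2 and the lowest in replicate 3. Hsd3b1 had the same order, and so did Bmpr1b, at 63.4, 105 and 31.4. The part of ovarian tissue in these values was not tested. Stra6, the retinol transporter, had 172 and 101 against 33.5 and 47.1 (-1.71, SE 0.40). In all, 1 of 17 retinoic acid genes was called higher and 4 lower, with a median of -0.30 (-0.12 without saline replicate 1). The list had 0 called higher and 1 lower, Stra6 (-1.34), without saline replicate 1.

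A few matrix genes were called, within lists whose medians lay near 0 or below it. Of all genes, 1.98% were called higher and 2.68% lower. Fn1 (fibronectin) had 4790 and 2330 normalised counts in saline and 1464 and 1462 at Day 3 (log2 difference -1.19, SE 0.33). Thbs1, a thrombospondin that activates TGF-beta, had 805 and 402 against 159 and 258 (-1.49, SE 0.39). Thbs2 had 296 and 93.4 against 45.8 and 64.7 (-1.60, SE 0.57). The hyaluronan synthase Has2 (12.3 and 53.2 in saline, 79.7 and 92.1 at Day 3) and the adhesion protein Spon1 (286 and 908, then 1291 and 1311) were called higher. Of 29 matricellular and repair genes tested, 2 were thus higher and 3 lower, with a median of 0.00. These 5 were not called without saline replicate 1, where 0 were higher and 1 lower in the list, at -0.68 for Fn1, -0.99 for Thbs1, -0.78 for Thbs2, 0.69 for Has2 and 0.52 for Spon1. Without saline replicate 2, 3 were called higher and 9 lower. Among 31 metallopeptidases and inhibitors tested, 0 were higher and 3 lower (median -0.34, but 0.02 with Mmp12 alone called lower without saline replicate 1, and -1.01 with 13 without saline replicate 2): Mmp9, the macrophage elastase Mmp12 (63.5 and 342 in saline, 13.4 and 17.4 at Day 3) and stromal Mmp11 (1592 and 289, then 204 and 211). Of 40 integrin and laminin genes, Itgb3 was called higher, and Itgb8, Itga11 and Lama1 lower. At Day 8 Lama1 stood at 19.8, 33.0 and 4.48, the same order as Hsd3b1, and the part of ovarian tissue was not tested. Itgb3, the beta chain of the vitronectin receptor and a mark of receptivity, had 125 and 153 in saline and 261 and 315 at Day 3 (1.05, SE 0.39), and was not called without saline replicate 1 (0.90) or either replicate of Day 3 (1.17 and 0.91). Of the lower ones, Itga11 and Lama1 were not called without saline replicate 1, and Itgb8 was. Of 35 collagen genes tested, 0 were higher and 2 lower, with a median of -0.12, and 0 were called without saline replicate 1 (median 0.10).

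Of 17 oestrogen-induced genes tested, 0 were called, 11 had a positive difference, and the median was 0.85 (0.34 without saline replicate 1). Lcn2 (lipocalin) had 994 and 1793 normalised counts in saline and 3556 and 3332 at Day 3, and Padi1 had 155 and 674 against 1562 and 1507 (log2 difference 2.24, SE 0.99), which was not called. Ltf (lactoferrin) overlapped, with 1772 and 278 against 359 and 281, and its lower mean at Day 3 rested on saline replicate 1. For 10 of 13 Sprr and cornification genes tested, both Day 3 libraries lay above both saline libraries, where 24.1% of all genes did. Their median was 1.50 with 0 called, and it was 1.13 without saline replicate 1 and 2.14 without saline replicate 2. These Sprr genes share sequence, so their counts are not separate. Of 16 progesterone-induced genes tested, 2 were called higher and 2 lower, which is 25% of the list where 4.66% of all genes were called. Without saline replicate 1, 0 were called higher and 1 lower. Hsd11b2, which inactivates glucocorticoid, had 477 and 1075 in saline and 1635 and 1981 at Day 3 (1.33, SE 0.37). Il13ra2, the decoy receptor of interleukin 13, had 8.41 and 18.3 against 68.5 and 38.3 (1.96, SE 0.78). Neither stayed called without saline replicate 1 (0.75 and 1.45). Ihh and Ptch1 were the lower ones. Of 21 receptivity genes tested, Itgb3 was called higher, and Ihh and Msx1 lower (14.3% of the list), and 0 were higher and 3 lower without saline replicate 1. Msx1, a homeobox gene of the receptive uterus, had 1470 and 1583 in saline and 544 and 552 at Day 3 (-1.48, SE 0.43) and -1.55 without saline replicate 1. Lif, the cytokine required for implantation, had 1.44 and 9.59 in saline and 14.0 and 10.1 at Day 3 (1.35, SE 1.05) and was not called. Itgav had 572 and 294 against 226 and 192 (-0.97), just under the fold required.

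The division genes depended on one library. Of 36 mitosis genes tested, 3 were called higher and 0 lower (1.98% and 2.68% of all genes). In 34 the difference was positive, and the median over the 36 was 0.81. That median was -0.11 without saline replicate 1, with 0 called, and 1.64 without saline replicate 2, with 23 called higher. Leaving out Day 3 replicate 1 or replicate 2 left 0 of the 36 called. Cdc25c, the phosphatase that starts mitosis, had 6.93 and 32.0 normalised counts in saline and 80.6 and 65.6 at Day 3 (log2 difference 2.19, SE 0.71). Hmmr, a spindle protein, had 213 and 796 against 1049 and 1066, and Cenpa, the centromeric histone, 171 and 501 against 644 and 686. Saline replicate 2 lay nearer to Day 3 than to saline replicate 1 in both. DNA replication genes had a median of 0.04 over 39 tested with 0 called, but -0.46 without saline replicate 1, and 0.60 with 4 called higher without saline replicate 2. Respiratory chain genes had a median of 0.45 over 39 tested with 0 called, and 0.13 without saline replicate 1, or 0.75 with 13 called higher without saline replicate 2. Cholesterol synthesis genes had 0.64 over 24 tested with 0 called, and 0.02 without saline replicate 1, or 1.23 with 6 called higher without saline replicate 2.

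No gene was called in the pathway of the infused protein itself. Of 20 genes of the CXCL12 axis tested, 0 were called, and the median was 0.04 (-0.01 without saline replicate 1). Cxcl12 had 473 and 563 normalised counts in saline and 469 and 591 at Day 3 (log2 difference 0.03, SE 0.51). Its receptor Cxcr4 had 142 and 109 against 83.5 and 98.3 (-0.45), and Ackr3 had 306 and 267 against 400 and 324 (0.33). The infused protein was human and was not measured by these reads. Of 34 endothelial and angiogenesis genes tested, 0 were called higher and 1 lower (1.98% and 2.68% of all genes). The median was -0.14 (-0.001 without saline replicate 1). The one called was Nrp2, a co-receptor for VEGF-C and semaphorins, with 778 and 265 in saline and 186 and 171 at Day 3 (-1.34, SE 0.58). It stood at -0.57 without saline replicate 1, where 0 of the 34 were called, and 0 were called without Day 3 replicate 1 or replicate 2. Pecam1, the endothelial adhesion molecule, had 629 and 362 against 490 and 595 (0.18). Vegfa, the main vascular growth factor, had 218 and 420 against 310 and 403 (0.22). Tie1 had 175 and 98.3 against 127 and 148 (0.06), and Cd34 had 4840 and 3706 against 5004 and 4863 (0.22). Saline and Day 3 values overlapped for Cxcl12, Pecam1, Vegfa and Tie1, and these 4 changed sign in at least 1 alternative analysis.

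A few lists separated the Day 3 libraries from each other. Fat genes were higher in replicate 1: Fabp4, the fatty acid carrier of adipocytes, had 2209 and 16765 normalised counts in saline and 11239 and 1365 at Day 3, and the adipocyte hormone Adipoq had 991 and 2397 against 2418 and 345. Of 26 adipocyte genes tested, Cidea was called higher and Lpl lower, where 1.98% and 2.68% of all genes were. Without Day 3 replicate 1 the list had 0 called higher and 11 lower with a median of -1.08, without Day 3 replicate 2 it had 0 called and a median of 0.52, and without saline replicate 1 it had 0 called. Of 12 major urinary protein genes tested, 0 were called, and Mup2 had 68.8 and 73.3 in saline and 204 and 18.9 at Day 3. The genes of that family share reads and their separate levels are uncertain. Of 21 stromal fibroblast genes tested, Ngfr was called higher and Hoxd10 lower (but at -0.33, not called, without saline replicate 1), with a summed list of 166297 and 168425 in saline and 168804 and 186480 at Day 3. Epithelial keratin, claudin and junction genes had 0 of 24 called and a median of 0.38 (0.04 without saline replicate 1).

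**Figure D4:**
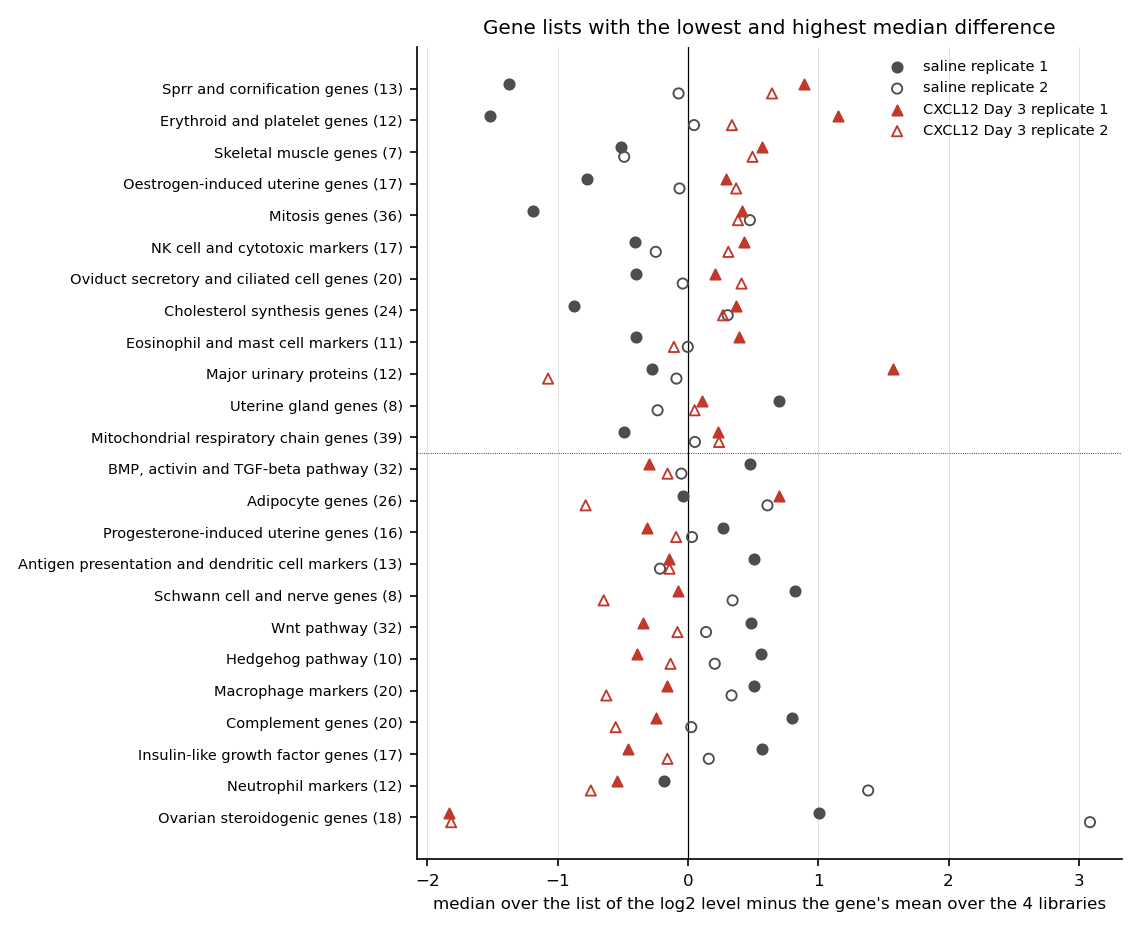
For the 12 gene lists with the lowest and the 12 with the highest median difference among lists with at least 7 tested members, the median over the list's genes of the log2 level minus each gene's mean over the 4 libraries, in saline replicates 1 and 2 (filled and open circles) and CXCL12 Day 3 replicates 1 and 2 (filled and open triangles). The ovarian and neutrophil lists have the lowest median differences, at -4.04 and -1.56, and in several lists saline replicate 1 stands apart from the other 3 libraries.

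Of the 693 genes called, 55 were called in each of 18 alternative analyses, 20 higher and 35 lower. This group was picked after its values were seen, and no test was made on it. Among the higher genes, Socs1, the inhibitor of cytokine signalling, had 30.1 and 21.4 normalised counts in saline and 79.7 and 82.2 at Day 3 (log2 difference 1.64, SE 0.39). Gfra1, the co-receptor for the growth factor GDNF, had 70.2 and 52.2 against 273 and 227 (2.02, SE 0.44). Sphk1, the sphingosine kinase, had 54.8 and 45.4 against 135 and 136 (1.42, SE 0.35). The saline libraries lay close together in these 3. Ngfr, the neurotrophin receptor p75 of stromal cells, had 414 and 945 against 1842 and 2388. Fut2, the epithelial fucosyltransferase, had 56.2 and 128 against 376 and 239. Rdh12, a retinol dehydrogenase, had 18.1 and 19.1 against 92.9 and 60.6, and Atp2c2, a secretory calcium pump, 15.7 and 37.4 against 132 and 107. Ccl11, Chst13 and Actg2 were also in this group. The lower genes included S100a9, Cd68, Clec7a, Gpnmb, Lgr5, Sfrp1, Stra6 and, of the oocyte, Gdf9, Nlrp5, Nlrp14, Btg4 and Obox1. Serpine2, a serine protease inhibitor, had 2285 and 1840 in saline and 557 and 638 at Day 3, a log2 difference of -1.78. Slc16a3, a lactate exporter, had 67.7 and 61.2 against 14.4 and 21.1.

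**Figure D5:**
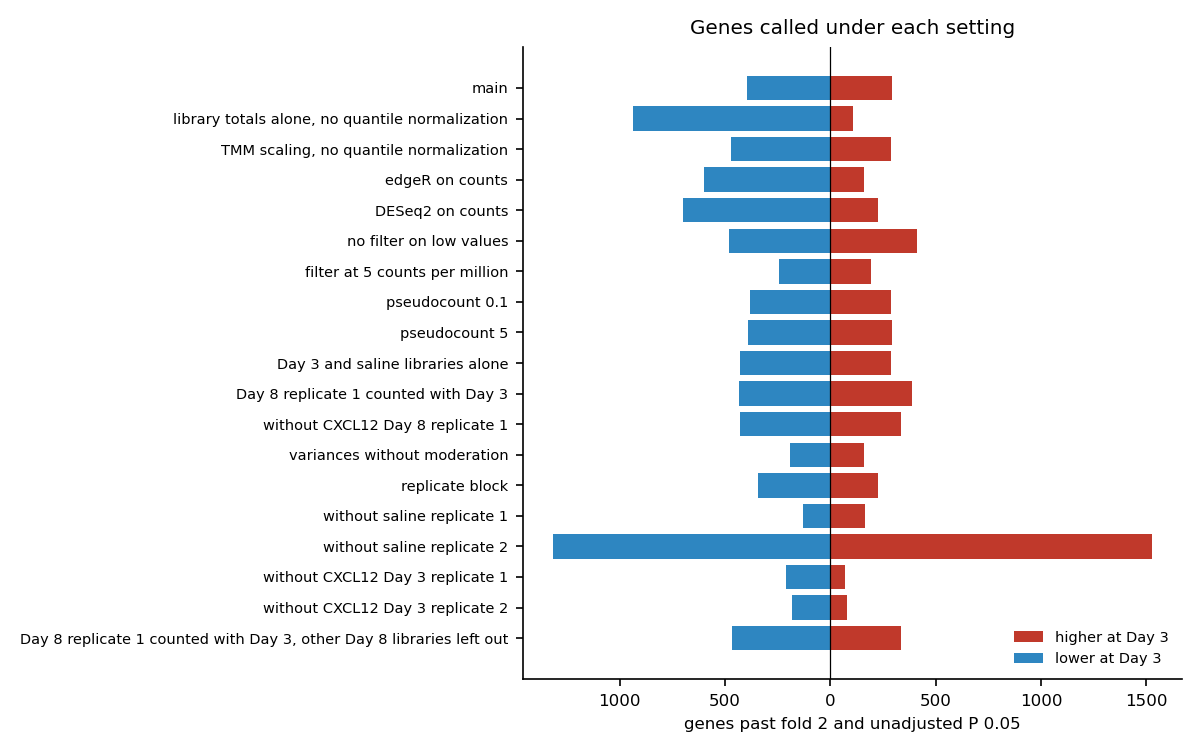
Number of genes called higher (right) and lower (left) at CXCL12 Day 3 against saline under each of 19 analyses, with the main one at 295 higher and 398 lower. The counts run from 259 without Day 3 replicate 2 to 2847 without saline replicate 2, and the totals-alone analysis has 939 of its 1045 calls on the lower side.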

How the data were processed

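RNA of uterine tissue from 2 saline, 2 CXCL12 Day 3 and 3 CXCL12 Day 8 libraries was sequenced by QuantSeq 3′ mRNA-Seq (75-base single reads). The authors aligned reads with Bowtie2 and deposited read counts per gene, from unique and multiple alignments with Bedtools, for 6 libraries. The table of Day 3 replicate 1, as deposited, holds normalised counts on a log2 scale, so counts were recovered: undoing the log2 and dividing by 1.0545 brought 95.7% of 3720 low values within 0.1 of a whole number (20% by chance). Versions, the role of the builds named in the labels and the counting strand are not given in the sources used here. Groups came from the sample labels. The label of Day 8 replicate 1 was followed, although the name of its table says Day 3. That library correlated at a Pearson r of 0.95 and 0.952 with Day 3 replicates 1 and 2, and at 0.943 with saline replicate 2. With Day 8 replicates 2 and 3 it correlated at 0.895 and 0.901. Which day it belongs to was not tested.

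Counts were scaled to the geometric mean library total of 9762418 and quantile-normalised, and log2 values with a pseudocount of 1 were fitted by limma 3.58.1 (R 4.3.3) over 3 groups, with no covariate and 4 residual degrees of freedom. The planned test had assumed counts in every table. Tested genes, 14876 of 23282 rows, had at least 1 CPM in 2 libraries. Folds of genes with few reads use summed reads with exact 95% intervals. Totals ran from 6908790 to 12308982 counts, a floor of 3 counts is 2.66 to 4.24 normalised counts, values below 1 stand for about 0 or 1 reads, and intervals and floors cover counting error alone. The ribosomal precursor Rn45s took 9.36% to 13.0% of counts. On simulated data with 14537 genes for this comparison, limma called 96 of 100 genes changed 4-fold and 100 of 100 changed 16-fold by the unadjusted rule, with 545 of 14337 unchanged genes. At an adjusted p of 0.1 it called 64 and 98 of them, with 19 unchanged genes, where the data gave 0. The simulated libraries shared one mean for each unchanged gene, and none stood apart as saline replicate 1 did. Genes were named as the 12 largest per direction with non-overlapping groups and a mean of 64 normalised counts in the higher group, the 4 members of smallest P in each of 53 lists, and the study's own genes. Members and lists were chosen with earlier results of these data known. Some genes, such as Socs1, Gfra1, Sphk1 and Serpine2, were named because they were called in every alternative analysis. Gpnmb and Clec7a were named after their low values were seen. These choices were made on the results. Many of the other genes in the text are members of the lists. A few members of the lists are not reported here. Alternatives were other scalings, filters, pseudocounts, libraries and tests (edgeR 4.0.16, DESeq2 1.42.0). Promoters are from RefSeq, GRCm38.p6.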

Additional observations from a re-analysis of the deposited data

Results flagged for a closer look

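For 166 named genes the difference from saline at Day 3 was set against that at Day 8, which shares the saline libraries. In 7 of them every library of one time lay above the saline mean and every library of the other time below it. The share over all genes was not counted, so whether 7 is unusual is not known. Saline replicate 1 also draws the saline mean. For Hmmr its 213 normalised counts lay among the Day 8 values (222, 132 and 118). In the limma contrast of Day 3 with Day 8, 0 genes met an adjusted p of 0.1. Day 8 replicate 1, whose table is named Day 3, was counted with Day 8 here.

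Nrk, the Nik-related kinase, was higher than saline by 2.81 at Day 3 and lower by -0.95 at Day 8, a log2 difference of 3.76 between the times (limma adjusted p = 0.486). Ihh went the other way, at -2.58 and 0.94, a difference of -3.52 (limma adjusted p = 0.551). The 3 mitosis genes called at Day 3 were all in this group, with a difference of 2.80 for Hmmr, 2.76 for Cdc25c and 2.40 for Cenpa (limma adjusted p = 0.551, 0.655 and 0.551). Aldh1a2, of retinoic acid synthesis, differed by 1.70 (limma adjusted p = 0.551). Ackr3, the clearing receptor of CXCL12, was at 0.33 and -0.46, a difference of 0.79 (limma adjusted p = 0.689).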

How the results depend on the processing

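The count of 693 genes became 1045 with library totals alone, 437 with a filter at 5 CPM and 352 without moderation of variances. Leaving out one library gave from 259 to 2847 genes (295 without saline replicate 1, 2847 without saline replicate 2, 281 and 259 without Day 3 replicates 1 and 2). With one library left in a group, that library is assumed to vary like the other groups. At an adjusted p of 0.1, limma called 0 genes, DESeq2 94, limma with Day 8 replicate 1 counted as Day 3 and the other Day 8 libraries left out (chosen after seeing the data) 1, and leaving out one library 0 to 1956. The share of calls on the higher side was 42.6% here, 10.1% with totals alone, 21.3% by edgeR and 24.5% by DESeq2. The replicate number as a block gave 573 genes, 227 higher and 346 lower. Saline and Day 3 libraries share only a number, and deviations of same-numbered libraries correlated at -0.056 over 2 pairs, so the block is no evidence of pairing. Over all named genes and alternatives, 2452 values stayed on the same side of the rule with the same sign, 474 were no longer called, 8 became called and 24 changed sign. Of the list medians, 771 stayed within the spread and 183 moved. The cause was not tested.

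The sign changes were all in genes that were not called. With totals alone, Cxcl12 went to -0.19, Pecam1 to -0.027, Tie1 to -0.24 and Vegfa to -0.019. With Day 8 replicate 1 counted as Day 3, Cxcl12 went to -0.0715, Pecam1 to -0.0076 and Tie1 to -0.096, and with the other Day 8 libraries also left out to -0.0718, -0.0081 and -0.0971. By edgeR and DESeq2, Tie1 went to -0.0297 and -0.0196, and Hif1a, at -0.07 here, to 0.0259 and 0.0389. By TMM scaling Hif1a went to 0.0334. Leaving out one library gave ranges of -0.14 to 0.19 for Cxcl12, -0.22 to 0.58 for Pecam1, -0.35 to 0.48 for Tie1, -0.25 to 0.70 for Vegfa, -0.18 to 0.0446 for Hif1a, -0.77 to 0.0046 for Flt1 and -2.64 to 0.73 for Spp1. For Pecam1, Tie1, Vegfa, Flt1 and Spp1 both ends came from leaving out saline replicate 1 or 2.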
